A study of Mus musculus with 30 samples.

Results

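Cholesterol is built from acetyl-CoA through the mevalonate pathway, and cells also obtain it from lipoproteins taken up from the blood. Expression was described here for 8 genes of these routes. Hmgcs1, Idi1, Fdps, Fdft1, Sqle, Lss and Dhcr7 encode enzymes that act along the route to cholesterol, and Scarb1 encodes a receptor through which cells exchange cholesterol with lipoproteins. The members were all probe sets (groups of short probes on the array that report 1 transcript) that the platform annotation pairs with 1 of these symbols. This gave 11 probe sets of the 12422 on the array that are not Affymetrix controls, since Fdps has 4 and each of the other 7 genes has 1. The 8 genes stand among 8251 genes with a probe set of 1 symbol. Uptake is thus represented among the members by Scarb1, whose protein is best known as a receptor for HDL.

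The arrays measured RNA from the left ventricle of C57BL/6 mice at 2 months of age, and each sample combined RNA of 2 animals. Genotype was HCM or wild type, and the labels name no mutation, transgene or promoter. The letters usually stand for hypertrophic cardiomyopathy, in which the ventricular wall thickens. From housing until collection the mice ate either a casein-based or a soy-based rodent diet without restriction. There were 4 arrays each of females and males in casein HCM, 3 each in soy HCM, and 4 each in casein wild type and in soy wild type, which makes 30 arrays in 8 groups. Nothing in the labels ties a sample number to a litter or a day, so each p-value rests on how much these pools of RNA vary within a group. The values are log2 expression as deposited, and differences below are on the same log2 scale.

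Transcription of most of these enzymes is driven by SREBP-2, a membrane-bound factor that is cut and moves to the nucleus when sterols in the endoplasmic reticulum run low. It binds short sterol regulatory elements, commonly beside boxes for the factors NF-Y and Sp1, so that the genes of the route are known to move together when cellular cholesterol changes. The heart makes little of the body's cholesterol compared with the liver, and the same route also supplies isoprenoid chains, ubiquinone and dolichol.

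Promoters are shown for the members that the RefSeq promoter table (build GRCm38.p6) holds, because they let the 3 kinds of box be seen in the genes themselves. The table matched 4 of the 8 genes, with 6 promoters of 300 bases (250 before and 50 after the start), since Dhcr7 has 3 starts. Both strands were searched for TCACNCCAC (the sterol regulatory element), CCAAT (the NF-Y box), GGGCGG (the Sp1 box) and TCACGTGA (an E-box form). Capitals mark every match, and a match on the other strand appears as its complement (ATTGG or CCGCCC). All lie on the + strand: Hmgcs1 at chr13:119690101-119690400, Idi1 at chr13:8885356-8885655, Lss at chr10:76531355-76531654 and Dhcr7 at chr7:143829964-143830263. The Dhcr7 start printed is the only one of its 3 with an NF-Y box.
Hmgcs1: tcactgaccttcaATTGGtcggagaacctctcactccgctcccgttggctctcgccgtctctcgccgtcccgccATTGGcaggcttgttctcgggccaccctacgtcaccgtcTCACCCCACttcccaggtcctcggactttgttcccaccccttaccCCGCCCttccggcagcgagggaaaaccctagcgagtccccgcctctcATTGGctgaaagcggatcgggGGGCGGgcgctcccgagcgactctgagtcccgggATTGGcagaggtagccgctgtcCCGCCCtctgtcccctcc
Idi1: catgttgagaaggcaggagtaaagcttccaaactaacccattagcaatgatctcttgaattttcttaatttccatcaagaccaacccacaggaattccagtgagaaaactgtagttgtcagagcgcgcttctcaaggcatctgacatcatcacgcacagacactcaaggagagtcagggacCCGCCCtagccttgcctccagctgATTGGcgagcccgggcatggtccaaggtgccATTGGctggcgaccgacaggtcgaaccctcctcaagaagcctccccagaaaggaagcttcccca
Lss: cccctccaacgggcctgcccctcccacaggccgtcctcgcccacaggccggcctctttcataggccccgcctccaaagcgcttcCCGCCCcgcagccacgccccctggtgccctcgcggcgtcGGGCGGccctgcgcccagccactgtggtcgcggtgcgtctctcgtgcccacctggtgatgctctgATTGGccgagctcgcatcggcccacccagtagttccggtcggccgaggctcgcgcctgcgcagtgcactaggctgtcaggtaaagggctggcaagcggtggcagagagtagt
Dhcr7: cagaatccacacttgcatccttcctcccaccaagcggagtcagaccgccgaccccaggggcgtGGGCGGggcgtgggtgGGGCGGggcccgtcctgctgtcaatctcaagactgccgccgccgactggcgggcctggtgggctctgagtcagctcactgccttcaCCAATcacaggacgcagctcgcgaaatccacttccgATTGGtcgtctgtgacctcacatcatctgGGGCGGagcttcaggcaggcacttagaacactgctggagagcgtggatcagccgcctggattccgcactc

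Hmgcs1, which encodes the synthase that makes HMG-CoA, held 1 sterol regulatory element, TCACCCCAC, 137 bases before its start, with 4 NF-Y boxes and 3 Sp1 boxes around it. Idi1 held 2 NF-Y boxes and 1 Sp1 box, Lss 1 and 2, and the printed Dhcr7 promoter 2 and 3. None of the matches overlapped another. Of the 32851 promoters in the table, 1.24% held the sterol element, 37.4% an NF-Y box, 35.7% an Sp1 box and 0.974% the E-box form, which was found in none of the 6. These letters are a description of the windows and say nothing of binding in these hearts.

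Before the members, some facts of the whole series bear on every value. The diet and genotype combinations differ in the control RNAs added at the bench: the poly-A control Dap read 7.19 to 8.07 on the casein HCM arrays and 4.03 to 4.70 on all others, and the hybridization controls (BioD minus BioC) read 0.89 to 1.13 on soy HCM arrays and -0.23 to 0.37 on soy wild-type arrays. The casein wild-type arrays split by the same difference into replicates 1 and 2 of each sex (1.01 to 1.19, called set A) and replicates 3 and 4 (-0.86 to -0.66, called set B). Apart from that split, a set is a combination of diet and genotype taken from the labels. An effect of the set and an effect of diet or HCM therefore cannot be told apart. On both controls soy HCM overlapped set A (Dap 4.029 to 4.205 and 4.108 to 4.305). Sets entered below as a random block had a correlation of 0.18 within a set. Only the split of casein wild type informs it, since the other sets are whole groups with coefficients of their own. For those sets it is assumed. The median log2 value of an array followed diet. It was 6.142 to 6.169 in casein HCM and 6.109 to 6.188 in casein wild type. In soy HCM it was 6.203 to 6.216 and in soy wild type 6.198 to 6.225, so every casein array lay below every soy array. Also, male soy wild-type replicate 2 stood apart, with a mean correlation to its own group of 0.963 against 0.984 or more for every other array. The ventricular cardiomyocyte markers were present, as the labelled tissue has them: 7 of 8 were measured, with mean log2 levels of 12.1 to 12.3 in casein HCM, 11.8 to 11.9 in soy HCM, 11.9 to 12.1 in casein wild type and 11.4 to 11.7 in soy wild type.

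**Figure D1:**
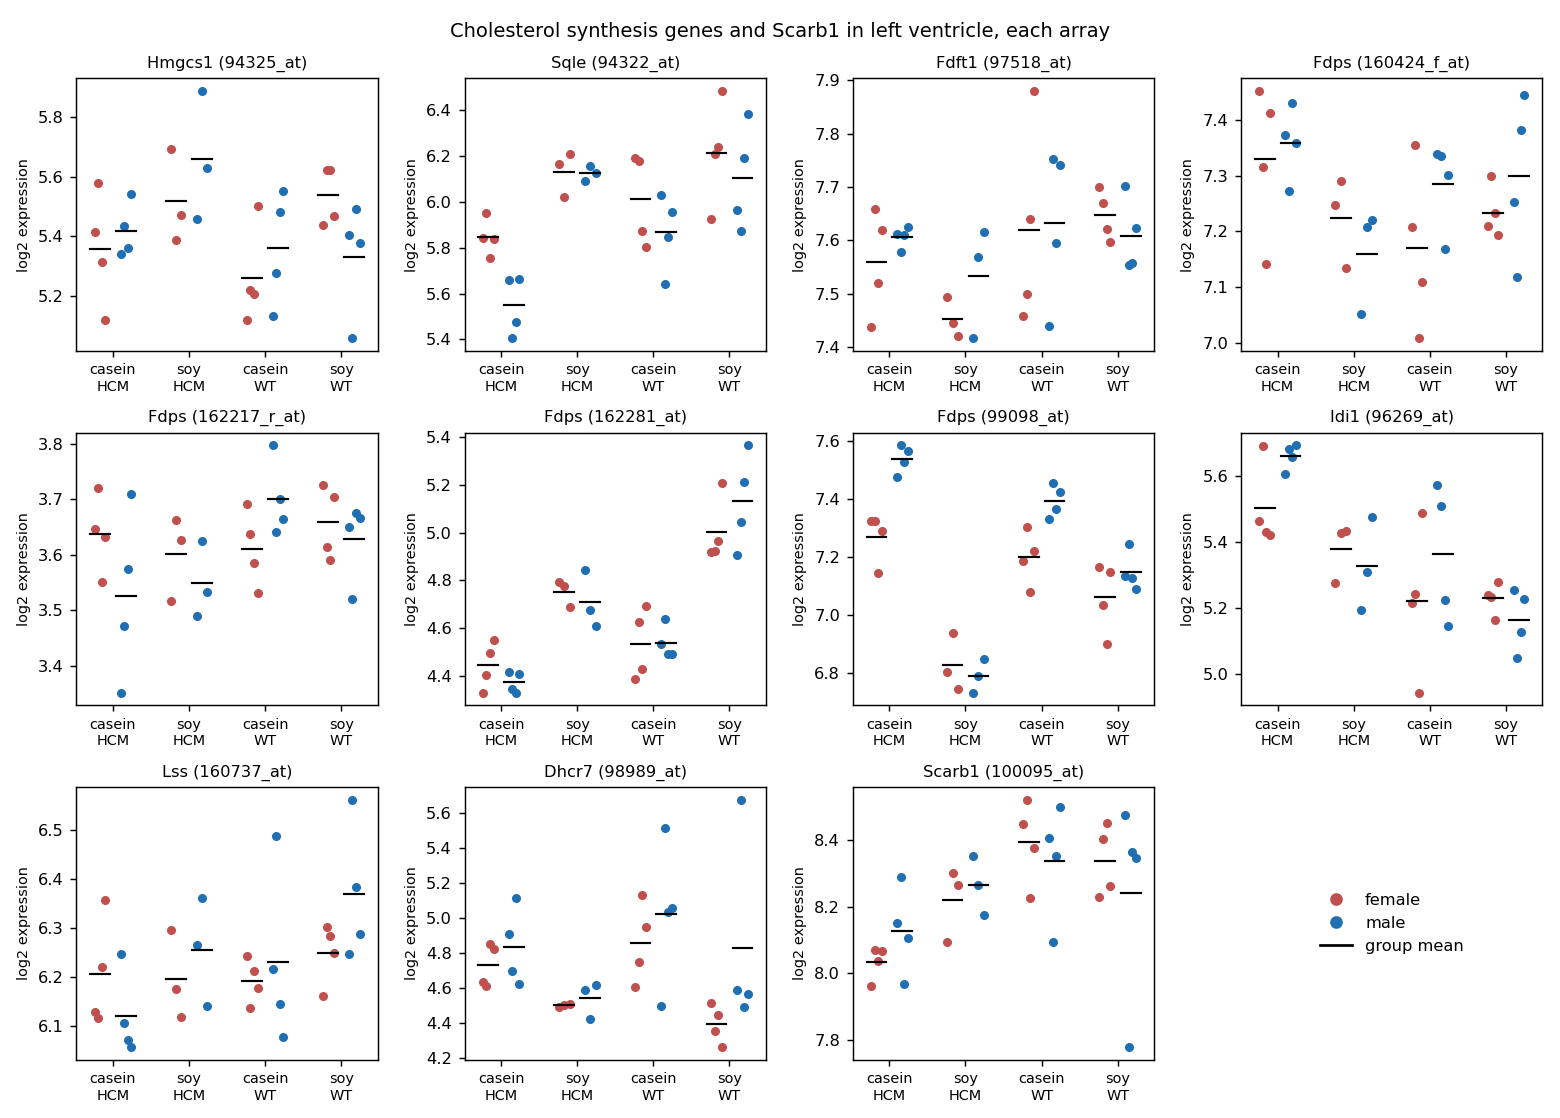
Log2 expression (y axis) of the 11 probe sets in every array, by diet and genotype (x axis), with females in red, males in blue and a bar at each group's mean. Sqle and the Fdps probe sets 162281_at and 99098_at separate casein from soy in HCM without overlap, while the single high value of Dhcr7 in soy wild type is male replicate 2.

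The diet effect in HCM compared casein with soy within HCM hearts, as the mean of both sexes. On casein, 4 of the 8 genes had a probe set that passed the test: Sqle and Hmgcs1 were lower, Idi1 was higher, and Fdps had probe sets in both directions. Over the probe sets, 6 of 11 passed, 3 higher and 3 lower, where 61.1% of all 12422 passed (29.8% higher and 31.3% lower), so the members were called no more often than probe sets in general. Their median difference was 0.01, beside -0.01 over all probe sets, and the median size of the difference was 0.20, beside 0.23. The tests are from a limma model over all arrays with Benjamini-Hochberg adjustment over the 12422 probe sets. This diet effect shares its casein arrays with the HCM effect on casein and its soy arrays with the HCM effect on soy.

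The first enzyme of the route among the members, Hmgcs1 (94325_at), ran at 5.12, 5.39 and 5.58 (lowest, median, highest of 8 arrays) in casein HCM, against 5.39, 5.55 and 5.89 (of 6) in soy HCM. The ranges overlapped over much of their length. Hmgcs1 fell by 0.20 ± 0.09 (SE), with a limma adjusted p of 0.0459. Idi1 (96269_at), the isomerase that makes the reactive isoprenoid unit dimethylallyl diphosphate, read 5.46, 5.69, 5.43 and 5.42 in female and 5.61, 5.68, 5.66 and 5.69 in male casein HCM arrays, against 5.27, 5.43 and 5.43 in female and 5.19, 5.31 and 5.47 in male soy HCM arrays. The male groups did not overlap, and the female groups did. Idi1 rose by 0.23 ± 0.07, limma adjusted p 0.00943, which is 1.17-fold.

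Sqle (94322_at) encodes squalene epoxidase, which puts the first oxygen on squalene and is a point of control in the later part of the route. It read 5.84, 5.95, 5.75 and 5.84 in female and 5.66, 5.40, 5.47 and 5.66 in male casein HCM arrays, against 6.16, 6.02 and 6.21 in female and 6.09, 6.16 and 6.13 in male soy HCM arrays. Every casein array lay below every soy array, and the 4 male casein arrays lay below the 4 female ones. Sqle fell by 0.43 ± 0.09 on casein, 1.35-fold, limma adjusted p 0.000109. In males the difference was -0.58 ± 0.12 and in females -0.28 ± 0.12, and the test of diet by sex, over both genotypes, gave 0.16 ± 0.12 (limma adjusted p 0.514).

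Fdps, the synthase that joins isoprenoid units into farnesyl diphosphate, is the branch point between sterols and the other isoprenoids, and its 4 probe sets did not give 1 answer. Probe set 99098_at read 7.32, 7.33, 7.15 and 7.29 in female and 7.48, 7.59, 7.53 and 7.56 in male casein HCM arrays, against 6.81, 6.94 and 6.74 in female and 6.73, 6.79 and 6.85 in male soy HCM arrays. All casein arrays were above all soy arrays, and it rose by 0.60 ± 0.05 (1.51-fold, limma adjusted p 1.11e-10), the largest difference among the 11 members in this comparison. Probe set 162281_at ran the other way without overlap, at 4.33, 4.40, 4.50 and 4.55 in female and 4.42, 4.35, 4.33 and 4.41 in male casein HCM arrays, against 4.80, 4.78 and 4.69 in female and 4.84, 4.67 and 4.61 in male soy HCM arrays.

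Probe set 162281_at of Fdps fell by 0.32 ± 0.07 (limma adjusted p 0.00017). Probe set 160424_f_at rose by 0.15 ± 0.06 (limma adjusted p 0.0324), with casein HCM arrays at 7.14 to 7.45 and soy HCM arrays at 7.05 to 7.29. Probe set 162217_r_at differed by 0.01 ± 0.05 and did not pass (limma adjusted p 0.926). In Affymetrix names, f marks a probe set whose probes can also match similar sequences and r one chosen under relaxed rules, and which of the 4 follows the Fdps transcript was not tested. Within groups the deviations of the 4 probe sets correlated weakly over the 30 arrays, between -0.09 for 162217_r_at with 162281_at and 0.35 for 160424_f_at with 162217_r_at, and at 0.04 for the opposed pair 162281_at and 99098_at.

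**Figure D2:**
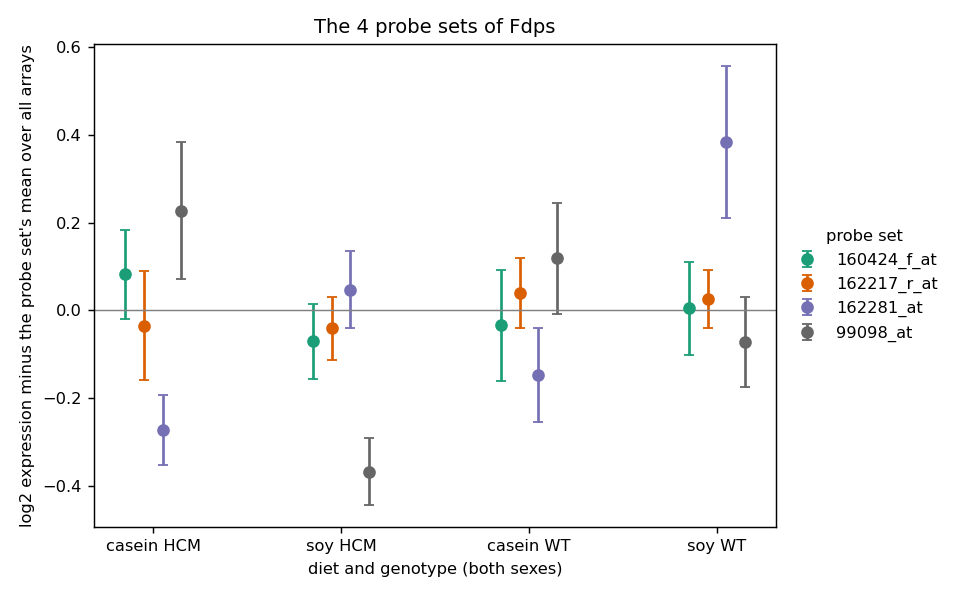
Mean log2 expression of the 4 Fdps probe sets (y axis, minus each probe set's own mean over all arrays) in the 4 combinations of diet and genotype (x axis, both sexes; bars are SD over 8 arrays, 6 in soy HCM). The probe set 99098_at lies higher on casein and 162281_at lower on casein within each genotype, while 162217_r_at stays near 0.

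The other members did not pass in HCM. Fdft1 (97518_at), the squalene synthase that commits farnesyl diphosphate to sterols, averaged 7.58 ± 0.07 (SD, n = 8) in casein HCM and 7.49 ± 0.08 (n = 6) in soy HCM, a difference of 0.09 with a 95% interval of -0.03 to 0.21. Lss (160737_at), the cyclase that folds epoxidised squalene into lanosterol, averaged 6.16 ± 0.10 in casein HCM and 6.23 ± 0.10 in soy HCM, a difference of -0.06 (-0.19 to 0.07). Dhcr7 (98989_at), the reductase of the last step to cholesterol in 1 branch, ran from 4.62 to 5.11 in casein HCM and from 4.43 to 4.62 in soy HCM, a difference of 0.26 (-0.03 to 0.56; limma adjusted p 0.117). Scarb1 (100095_at) ran from 7.96 to 8.29 in casein HCM and from 8.09 to 8.35 in soy HCM, a difference of -0.16 (-0.33 to 0.01; limma adjusted p 0.0979).

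The call of Hmgcs1 was lost (limma adjusted p 0.0503 to 0.171) without any 1 of 10 arrays: male soy wild-type replicate 4, male soy HCM replicates 2 and 3, male casein HCM replicates 1, 2 and 3, female soy HCM replicates 1 and 3, and female casein HCM replicates 3 and 4; that of Fdps 160424_f_at was lost (0.06 to 0.0988) without male soy HCM replicate 1, male casein HCM replicate 3, female soy HCM replicate 3 or female casein HCM replicate 1 or 4. Without male soy wild-type replicate 2, which stood apart and enters this contrast only through the shared spread, Dhcr7 and Scarb1 also passed (limma adjusted p 0.0275 and 0.0274), which made 8 of 11, and with array sets entered as a random block Hmgcs1, Fdps 160424_f_at and Idi1 did not pass (0.225, 0.192 and 0.107), which left 3. The Hmgcs1 call was also lost after quantile normalization and after centring arrays on their medians. Fdps 160424_f_at lost its call after quantile normalization and with a replicate block.

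In wild type, the same diet comparison called 3 of the 8 genes: Sqle was lower on casein, Dhcr7 was higher, and Fdps again had probe sets in both directions. Of the 11 probe sets 4 passed, 2 higher and 2 lower, where 46% of all probe sets passed (20.3% higher and 25.6% lower), which is no smaller a share. With each array centred on its median the split was 3 higher and 1 lower, since Idi1 passed (limma adjusted p 0.0491) and Sqle did not (0.124). The median difference over the members was -0.0018 beside -0.0259 over all probe sets.

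Fdps 162281_at read 4.39, 4.63, 4.43 and 4.69 in female and 4.53, 4.64, 4.49 and 4.49 in male casein wild-type arrays, against 4.92, 4.92, 4.96 and 5.21 in female and 4.91, 5.04, 5.21 and 5.37 in male soy wild-type arrays. No casein array reached a soy array, and the probe set fell by 0.53 ± 0.06 on casein (1.45-fold, limma adjusted p 9.89e-08). Fdps 99098_at read 7.19, 7.30, 7.08 and 7.22 in female and 7.33, 7.46, 7.36 and 7.42 in male casein wild-type arrays, against 7.17, 7.04, 6.90 and 7.15 in female and 7.14, 7.25, 7.13 and 7.09 in male soy wild-type arrays. The male groups were apart and the female groups overlapped. It rose by 0.19 ± 0.05 (1.14-fold, limma adjusted p 0.00173).

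Sqle read 6.19, 6.18, 5.87 and 5.81 in female and 6.03, 5.64, 5.85 and 5.96 in male casein wild-type arrays, against 5.93, 6.21, 6.24 and 6.49 in female and 5.96, 5.87, 6.19 and 6.38 in male soy wild-type arrays. The groups overlapped in both sexes, and Sqle fell by 0.22 ± 0.08 (limma adjusted p 0.0268). Dhcr7 read 4.61, 4.75, 5.13 and 4.95 in female and 4.50, 5.52, 5.03 and 5.06 in male casein wild-type arrays, against 4.52, 4.36, 4.45 and 4.26 in female and 4.59, 5.68, 4.50 and 4.57 in male soy wild-type arrays. The female groups did not overlap, and the highest of all Dhcr7 values was male soy replicate 2. Dhcr7 rose by 0.33 ± 0.13 on casein (limma adjusted p 0.0447), and by 0.47 without that array (limma adjusted p 0.000275).

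Hmgcs1 averaged 5.31 ± 0.17 (SD, n = 8) in casein and 5.44 ± 0.18 (n = 8) in soy wild type, a difference of -0.12 with a 95% interval of -0.29 to 0.04 that did not pass. Idi1 differed by 0.10 (-0.05 to 0.24), Lss by -0.10 (-0.22 to 0.02; limma adjusted p 0.0331 without male casein wild-type replicate 2), Scarb1 by 0.08 (-0.08 to 0.24) and Fdft1 by -0.0018 (-0.12 to 0.11), none of which passed over all arrays. The remaining probe sets of Fdps, 160424_f_at and 162217_r_at, differed by -0.04 (-0.16 to 0.08) and 0.01 (-0.09 to 0.11).

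Within casein wild type, set A and set B (4 arrays each) could be compared directly, and 0 of the 11 members differed by the limma test, where 13.5% of all probe sets did; 4 members had an unadjusted p under 0.05. Those were Hmgcs1 at -0.25 (set A minus set B), Fdft1 at -0.18, Idi1 at 0.18 and Fdps 160424_f_at at 0.16. The calls of Sqle and Dhcr7 in wild type ended under several settings, and leaving out 1 array was enough: Sqle (limma adjusted p 0.0504 to 0.0796) without replicate 3 or 4 of male soy, 2 of male casein, 4 of female soy or 3 or 4 of female casein wild type, and Dhcr7 (0.0501 to 0.119) without replicate 1, 3 or 4 of male soy, 2, 3 or 4 of male casein, 2, 3 or 4 of female soy or 3 or 4 of female casein wild type, or any female soy HCM array. With array sets entered as a random block, Sqle and Dhcr7 did not pass (0.19 and 0.244), and both Fdps calls kept the threshold (highest adjusted p over all settings 0.0497 for 99098_at and 0.000137 for 162281_at).

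**Figure D3:**
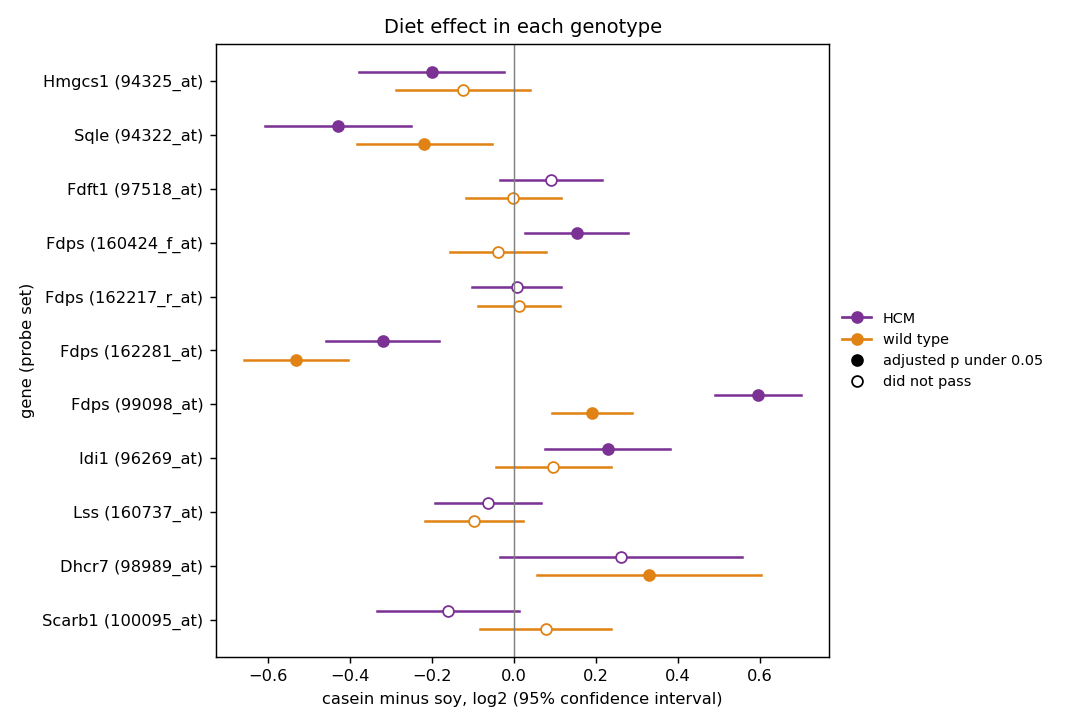
Casein minus soy, log2 (x axis, with 95% confidence intervals), for the 11 probe sets (y axis) in HCM (purple) and wild type (orange); filled points have a limma adjusted p under 0.05. Sqle and Fdps 162281_at lie below 0 and Fdps 99098_at above 0 in each genotype, and only for Fdps 99098_at did the difference between the genotypes pass.

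Whether the diet effect differed between the genotypes was tested as an interaction, the diet effect in HCM minus that in wild type. Of the 11 probe sets 1 passed, where 45.2% of all probe sets did (23.9% above and 21.3% below 0). Fdps 99098_at had a diet effect of 0.60 in HCM and 0.19 in wild type, and the difference of 0.40 ± 0.07 passed (limma adjusted p 3.59e-05). Over the 8 groups its means ran in the order 6.79 ± 0.06 in male soy HCM (SD, n = 3), 6.83 ± 0.10 in female soy HCM (n = 3), 7.06 ± 0.12 in female soy wild type, 7.15 ± 0.07 in male soy wild type, 7.20 ± 0.09 in female casein wild type, 7.27 ± 0.09 in female casein HCM, 7.39 ± 0.06 in male casein wild type and 7.54 ± 0.05 in male casein HCM (n = 4 in each of the last 6). Neighbours in this order lay within about their spread of each other, except the step between female soy HCM and female soy wild type and the steps up to male casein wild type and to male casein HCM.

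Sqle had -0.43 in HCM and -0.22 in wild type, and the difference of -0.21 ± 0.12 did not pass (limma adjusted p 0.148). Fdps 162281_at (0.21 ± 0.09, limma adjusted p 0.0608), Fdps 160424_f_at (0.19 ± 0.08, 0.0623) and Scarb1 (-0.24 ± 0.11, 0.0909) lay close to the threshold. Without male soy wild-type replicate 2 the count was 3, since Fdps 160424_f_at (limma adjusted p 0.0218) and 162281_at (0.0417) also passed. Each also passed without some other single arrays: Fdps 160424_f_at without female casein wild-type replicate 2 or female casein HCM replicate 3, 162281_at without male soy wild-type replicate 1, male casein wild-type replicate 2, male soy HCM replicate 1, female casein wild-type replicate 4 or female casein HCM replicate 1 (0.0218 to 0.0468), and Scarb1 without male soy wild-type replicate 1 or male casein wild-type replicate 2 (0.0411 to 0.0454).

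On casein, HCM hearts were compared with wild-type hearts. Idi1 was higher in HCM, and Sqle and Scarb1 were lower, which made 3 of 11 probe sets where 49% of all probe sets passed (25% higher and 24% lower). The median difference over the members was -0.05, beside -0.0035 over all probe sets. Idi1 ran at 5.42, 5.63 and 5.69 (lowest, median, highest of 8) in casein HCM, against 4.94, 5.23 and 5.57 (of 8) in casein wild type, and rose by 0.29 ± 0.07 (1.22-fold, limma adjusted p 0.00105). It passed under every setting that could be run for it, with a highest adjusted p of 0.033.

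Scarb1 encodes SR-BI, the receptor that moves cholesteryl esters from HDL into cells and is known in endothelium as well as in liver and steroid-making tissue. It read 7.96, 8.07, 8.04 and 8.07 in female and 8.15, 8.29, 7.97 and 8.11 in male casein HCM arrays, against 8.45, 8.52, 8.23 and 8.38 in female and 8.41, 8.09, 8.35 and 8.50 in male casein wild-type arrays. The female groups did not overlap, and in males replicate 2 of wild type lay inside the HCM range. Scarb1 fell by 0.28 ± 0.08 (1.22-fold, limma adjusted p 0.00351). Of the 8 endothelial markers measured 4 were lower and 0 higher in the same comparison, where 49% of all probe sets passed (25% higher and 24% lower). Their mean log2 levels were 7.59 to 7.86 in casein HCM and 7.85 to 8.03 in casein wild type. Other markers moved too: ventricular cardiomyocyte with 4 higher and 0 lower of 7, and atrium with 3 and 0 of 4. Fibroblast had 4 higher and 1 lower of 6, macrophage 3 and 2 of 7, and liver 3 and 1 of 6. Skeletal muscle had 2 and 0 of 5, adipocyte 1 and 1 of 6, steroid-making cells 0 and 1 of 4, and red blood cells 0 and 0 of 3. On soy, 3 of the 8 endothelial markers were higher in HCM and 0 lower, where 24.7% of all probe sets passed, and Scarb1 was at -0.05. The part of any of these markers in the Scarb1 value was not tested. In tissue RNA, fewer cells of a type and less RNA per cell cannot be told apart.

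Sqle ran at 5.40, 5.71 and 5.95 in casein HCM and at 5.64, 5.91 and 6.19 in casein wild type (lowest, median, highest of 8 each), and fell by 0.24 ± 0.08 in HCM (limma adjusted p 0.0139). Fdps 99098_at differed by 0.11 (0.01 to 0.21; limma adjusted p 0.0595) and Fdps 160424_f_at by 0.12 (0.0004 to 0.23; 0.0903), and neither passed. Fdps 99098_at passed without any 1 of male soy wild-type replicate 2, male casein wild-type replicate 2, female soy wild-type replicate 3, female casein wild-type replicate 2 or female casein HCM replicate 3 (0.0298 to 0.0488), and 160424_f_at without either of the last 2 of these (0.0323 and 0.0324). With array sets entered as a random block, Sqle and Scarb1 did not pass (0.134 and 0.0718), and against the set B arrays of casein wild type alone Sqle differed by -0.17 and did not pass.

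On soy, the HCM effect among the members was confined to Fdps by this test, with 2 of 11 probe sets lower and 0 higher, where 24.7% of all probe sets passed (12.3% in each direction). Fdps 99098_at ran at 6.73, 6.80 and 6.94 (lowest, median, highest of 6) in soy HCM, against 6.90, 7.13 and 7.25 (of 8) in soy wild type, and fell by 0.30 ± 0.05 (1.23-fold, limma adjusted p 0.000182). Fdps 162281_at ran at 4.61, 4.73 and 4.84 in soy HCM, against 4.91, 5.004 and 5.37 in soy wild type, without overlap, and fell by 0.34 ± 0.07 (limma adjusted p 0.000746). These same probe sets had moved in opposite directions with diet. Idi1 was at 0.16 (0.0036 to 0.31; limma adjusted p 0.124), Fdft1 at -0.13 (-0.26 to -0.01; 0.103), Hmgcs1 at 0.15 (-0.02 to 0.33; 0.196), Sqle at -0.03 (-0.21 to 0.15) and Scarb1 at -0.05 (-0.22 to 0.13), and none of these passed. With array sets entered as a random block 162281_at did not pass (0.082) and 99098_at did (0.0428).

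**Figure D4:**
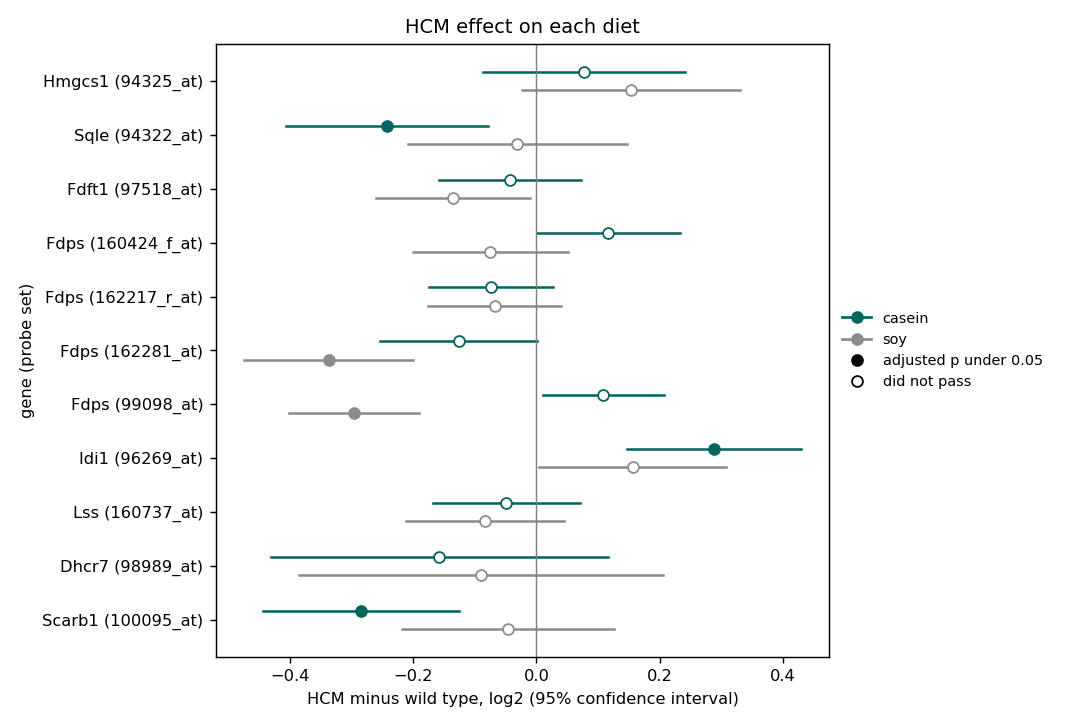
HCM minus wild type, log2 (x axis, with 95% confidence intervals), for the 11 probe sets (y axis) on casein (green) and soy (grey); filled points have a limma adjusted p under 0.05. Sqle, Idi1 and Scarb1 are filled on casein, and Fdps 162281_at and 99098_at on soy.

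Sex gave no call among the members. For the mean sex effect, female minus male over the 4 combinations of diet and genotype, 0 of 11 probe sets passed by limma, where 0.233% of all probe sets did (0.153% higher and 0.0805% lower), and 2 had an unadjusted p under 0.05. These were Fdps 99098_at at -0.13 ± 0.03 (limma adjusted p 0.203) and Sqle at 0.14 ± 0.06 (0.498). For diet by sex, 0 of 11 members passed by limma, where 0% of all probe sets did, and 2 had an unadjusted p under 0.05: Fdps 99098_at at -0.21 ± 0.07 (limma adjusted p 0.237) and Idi1 at -0.21 ± 0.10 (0.352). Within HCM the casein effect on Fdps 99098_at was 0.44 ± 0.07 in females and 0.75 ± 0.07 in males, and that on Idi1 was 0.12 ± 0.11 in females and 0.33 ± 0.11 in males.

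The members were set beside other genes of cholesterol handling, listed by role, with the probe set of the highest mean standing for a gene. Of the 15 other enzymes of the mevalonate and sterol route 11 were measured. In HCM, 3 were higher and 3 lower on casein, where 61.1% of all probe sets passed (29.8% higher and 31.3% lower). In wild type 0 were higher and 5 lower, where 46% passed (20.3% higher and 25.6% lower). Taken over both directions the counts lie near those shares, but in wild type every call was lower. In HCM, Hsd17b7, a ketoreductase of the demethylation steps, fell by 0.76 ± 0.13 (limma adjusted p 1.23e-05), Ebp, a sterol isomerase, rose by 0.47 ± 0.07 (2.95e-06), and Mvd, the decarboxylase before isopentenyl diphosphate, rose by 0.40 ± 0.09 (0.000285). None of these 3 passed in wild type, and for each the difference between the genotypes passed (-0.86 for Hsd17b7, 0.34 for Ebp and 0.45 for Mvd, limma adjusted p 0.000275, 0.00659 and 0.00279). In wild type the 5 lower genes were Tm7sf2, Lbr, Mvk, Cyp51 and Ggps1, named after their values were seen. Tm7sf2 and Lbr, which both reduce the same bond of a sterol intermediate, were at -0.40 ± 0.08 and -0.28 ± 0.10, and Mvk, the mevalonate kinase, was at -0.21 ± 0.06. The dimmer probe sets of Mvk (95632_f_at, at -0.14) and Ggps1 (98970_at, at 0.01) did not pass there. In HCM Mvk was among the 3 higher genes, at 0.20 ± 0.07 (limma adjusted p 0.0128), and the difference between the genotypes passed at 0.41 ± 0.09 (0.000835). Over the 11, the median was -0.05 in HCM, where all probe sets had -0.0099, and -0.06 in wild type, where all had -0.0259.

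Of 9 regulators of the route 4 were measured. In HCM 2 were higher and 1 lower on casein, while in wild type 3 were higher and 0 lower. The background was the same 61.1% in HCM (29.8% higher and 31.3% lower) and 46% in wild type (20.3% and 25.6%). Mbtps1, the protease that makes the first cut in SREBP, rose by 0.44 ± 0.08 in HCM (limma adjusted p 2.02e-05) and by 0.30 ± 0.07 in wild type (0.00135). Srebf1, which encodes SREBP-1, the family member tied mostly to fatty acid synthesis, fell by 0.29 ± 0.06 in HCM (limma adjusted p 0.000417) and rose by 0.17 ± 0.06 in wild type (0.0242), and the difference between the genotypes was -0.45 ± 0.09 (0.000156). Insig1, which holds the SREBP complex in the endoplasmic reticulum and is itself a target of SREBP, rose by 0.17 ± 0.06 in wild type (limma adjusted p 0.021) and was at 0.13 ± 0.07 in HCM (0.0786). The wild-type calls of Srebf1 and Insig1 were both lost with array sets entered as a random block (limma adjusted p 0.186 and 0.174), with set A alone (0.0872 and 0.0985), with set B alone (0.0865 and 0.0587) and without male soy wild-type replicate 4 (0.0527 and 0.0515). That of Srebf1 was also lost with array weights (0.0751), without male casein replicate 1 (0.0539) or female soy replicate 4 (0.0594) of wild type, and after quantile normalization, which gave 0.098 (0.192).

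Of 12 other genes of lipoprotein uptake and intracellular cholesterol transport 9 were measured. On casein 3 were higher and 3 lower in HCM, and 4 higher and 0 lower in wild type. Of all probe sets 61.1% passed in HCM (29.8% higher and 31.3% lower) and 46% in wild type (20.3% and 25.6%). Npc1, which carries cholesterol out of lysosomes, rose by 0.49 ± 0.09 in wild type (limma adjusted p 9.21e-05) and was at 0.08 ± 0.10 in HCM (0.501). Vldlr, a receptor for triglyceride-rich lipoproteins, fell by 0.38 ± 0.10 in HCM (limma adjusted p 0.00204), and Lipa, the lysosomal lipase that frees cholesterol from its esters, fell by 0.37 ± 0.07 (6.59e-05). Neither passed in wild type, at 0.15 ± 0.10 for Vldlr and -0.05 ± 0.07 for Lipa. The difference between the genotypes passed for all 3, at -0.41 for Npc1, -0.53 for Vldlr and -0.32 for Lipa (limma adjusted p 0.0158, 0.00286 and 0.0092). The dimmer probe set of Vldlr, 96534_at, was at -0.55 in HCM (limma adjusted p 0.00676) and -0.13 in wild type (0.507). Its difference between the genotypes, -0.41, did not pass (limma adjusted p 0.149).

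Of 8 genes of export, esterification and use 6 were measured, with 2 higher and 2 lower on casein in each genotype (61.1% of all probe sets passed in HCM and 46% in wild type). Apoe, the apolipoprotein that receptors of this family recognise, rose by 1.17 ± 0.10 in HCM (limma adjusted p 1.97e-10) and was at 0.13 ± 0.10 in wild type (0.292), with a difference between the genotypes of 1.05 ± 0.14 (1.28e-06). Its dimmer probe set, 161321_i_at, was at 0.23 ± 0.18 in HCM and did not pass (0.259). Pltp, which moves phospholipids between lipoproteins, rose by 0.69 ± 0.10 in HCM (limma adjusted p 5.31e-07) and by 0.33 ± 0.09 in wild type (0.00332). Lcat, which esterifies cholesterol on HDL, fell by 0.57 ± 0.09 in HCM (limma adjusted p 6.56e-06) and rose by 0.31 ± 0.09 in wild type (0.00475), though its other probe set, 103023_at, was lower in wild type at -0.36 ± 0.06 (5.04e-05), as it was in HCM at -0.23 ± 0.07 (0.00655). The wild-type calls of Pltp and Lcat were lost with array sets entered as a random block (limma adjusted p 0.0579 and 0.0754). With set A alone they did not pass either, at 0.18 for Pltp (0.171) and 0.19 for Lcat (0.17).

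**Figure D5:**
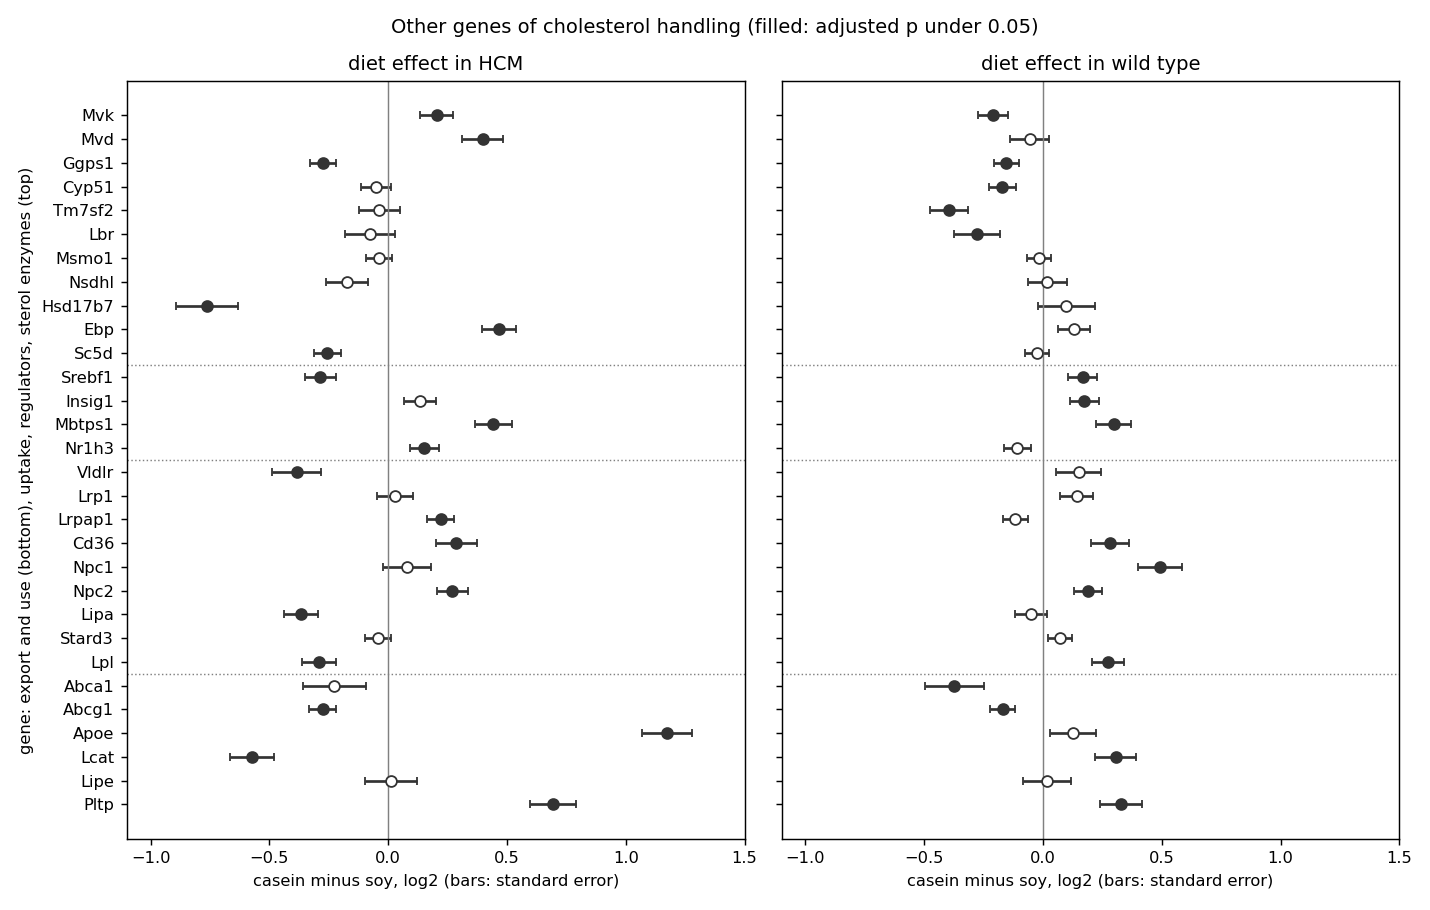
Casein minus soy, log2 (x axis, bars are SE), in HCM (left) and wild type (right) for the 30 other measured genes of cholesterol handling (y axis), in blocks of sterol enzymes, regulators, uptake, and export and use from top to bottom; filled points have a limma adjusted p under 0.05. Each block holds filled points on both sides of 0 in HCM, and Apoe in HCM lies farthest out at 1.17.

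For the HCM effects, on casein 3 sterol enzymes were higher and 3 lower of 11, where 49% of all probe sets passed, with Hsd17b7 at -0.35 ± 0.12 (limma adjusted p 0.0167) and Lbr at 0.31 ± 0.10 (0.00904). Both calls were lost with array sets entered as a random block (limma adjusted p 0.123 and 0.114) and against set B alone, where Hsd17b7 was at -0.11 (0.455) and Lbr at 0.31 (0.0514). That of Hsd17b7 was also lost without female casein wild-type replicate 1 (0.0536). Among the other roles Mbtps1 rose by 0.32, Srebf1 fell by 0.30, Npc1 fell by 0.43, Stard3, a sterol carrier of late endosomes, fell by 0.23, Apoe rose by 0.53 and Lcat fell by 0.60. The dimmer probe sets of Apoe (161321_i_at, at -0.01, limma adjusted p 0.978) and Lcat (103023_at, at -0.05, 0.55) did not pass.

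On soy 2 sterol enzymes were higher and 2 lower in HCM, of 11, where 24.7% of all probe sets passed, with Hsd17b7 at 0.51 ± 0.13 (limma adjusted p 0.00567) and Mvd at -0.33 ± 0.09 (0.00796). There Nr1h3, the sterol-sensing receptor LXR alpha, fell by 0.33, Lipa rose by 0.40, Lpl, the lipase that acts on circulating triglyceride, rose by 0.36, Apoe fell by 0.52 and Pltp fell by 0.38. Of these 7 calls only that of Lipa held with array sets entered as a random block, whose correlation the arrays compared here do not inform. The limma adjusted p under that block was 0.151 for Hsd17b7, 0.207 for Mvd, 0.061 for Nr1h3, 0.0887 for Lpl, 0.0721 for Apoe and 0.153 for Pltp. That of Mvd was 0.0501 with only the groups compared in the fit, and the dimmer probe set of Lpl, 160083_at, was at -0.17 (0.451).

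The fatty acid synthesis genes gave 2 higher and 1 lower of 7 measured (9 listed) on casein in HCM, and 3 higher and 1 lower in wild type, against 61.1% and 46% of all probe sets. Scd1 (94058_r_at), the desaturase that makes oleate, rose by 0.54 ± 0.12 in HCM and by 2.44 ± 0.11 in wild type, but its other probe sets differed from it in wild type. Probe set 94057_g_at was at 0.62 in HCM (limma adjusted p 0.000222) and -0.02 in wild type (0.893), and 94056_at was at 0.16 in HCM (0.164) and -0.28 in wild type (0.0131). Elovl6 (103665_at), a fatty acid elongase, fell by 0.36 in HCM and by 0.24 in wild type. Its probe set 94418_at, of nearly the same mean log2 level (4.51, beside 4.58), was at -0.01 in HCM (limma adjusted p 0.866) and -0.13 in wild type (0.0238).

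Markers of the cells in the tissue were read against the same background. Of all probe sets 61.1% passed in HCM (29.8% higher and 31.3% lower) and 46% in wild type (20.3% higher and 25.6% lower). All 7 ventricular cardiomyocyte markers measured were higher on casein in each genotype. Of the 4 atrial markers, 3 were higher and 0 lower on casein in HCM (mean log2 levels of 7.51 to 8.58 in casein HCM and 7.17 to 7.70 in soy HCM), and 0 were higher and 3 lower in wild type (6.82 to 7.65 in casein and 7.47 to 8.01 in soy). Of the 8 endothelial markers 2 were higher and 4 lower on casein in HCM (7.59 to 7.86 in casein HCM and 7.87 to 8.02 in soy HCM), and 4 were higher and 0 lower in wild type (7.85 to 8.03 in casein and 7.32 to 7.98 in soy). Of 6 liver markers measured 1 was higher and 2 lower in HCM, and 0 higher and 3 lower in wild type, with mean levels between 5.47 and 5.997 in all groups. Of 7 macrophage markers measured 2 were higher and 2 lower in HCM (Lyz2 at 0.68, C1qa at 0.61, Itgam at -0.48 and Mrc1 at -0.16), and 1 was higher and 4 lower in wild type. Of 6 fibroblast markers 1 was higher and 0 lower in HCM (Col3a1, at 0.32), and 1 was higher and 1 lower in wild type (Col3a1 at 0.90 and Lum at -0.40). Of 6 adipocyte markers measured 3 were higher and 1 lower in HCM, and 2 were higher and 2 lower in wild type, with Slc2a4 (0.50 in HCM and 0.74 in wild type) and Pnpla2 (0.36 and 0.52) higher in both. The 2 lower in wild type were Adipoq at -0.35 and Retn at -0.28, while Fabp4 (0.07) and Lep (-0.14) did not pass there. Whether the Slc2a4 and Pnpla2 values come from adipocytes in this tissue was not tested. Markers of steroid-making cells gave 2 higher and 1 lower of 4 in HCM and 1 and 1 in wild type, those of skeletal muscle 2 and 1 of 5 in HCM and 0 and 1 in wild type, and those of red blood cells 0 and 0 of 3 in HCM and 0 and 1 in wild type. The marker genes given with values were chosen after their values were seen. The part of these markers in the members' values was not tested.

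Within groups, positive and negative correlations between the 8 genes were equally frequent. Taking each array's deviation from its group mean, and the brightest probe set of each gene, 14 of the 28 pairs of members had a positive Pearson correlation, with a median of 0.02, beside 49.9% positive and a median of -0.0014 over all pairs of the 8251 genes. Fdps is represented here, and in the mean deviation below, by 160424_f_at alone. Without male soy wild-type replicate 2, 11 of the 28 were positive, with correlations between -0.61 and 0.55. All pairs share the 30 arrays in 8 groups, and the values are a description. The genes whose deviations were most like the mean deviation of the members were Fam3c (r of 0.69), Furin (0.69), Tgs1 (0.67), Slc41a1 (0.65) and Eps8 (0.63). Without that array these were 0.58, 0.65, 0.55, 0.54 and 0.58, at ranks 7, 2, 12, 15 and 5 among the genes other than the members, so which genes come first rests in part on that array.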

How the data were processed

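RNA from mouse left ventricle, with 2 animals pooled per sample, was hybridised to 30 Affymetrix MG_U74Av2 arrays, in 8 groups of diet, genotype and sex. The authors deposited log2 expression values per probe set; RMA and Affymetrix Expression Console are named per the submitters' processing notes, with versions not given in the sources used here. That method corrects background, normalises between arrays and sums up probes. Each probe set has its own probes, so levels are not comparable between probe sets. The deposited values were used without further scaling.

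Probe sets were named from the platform annotation: of 12422 that are not controls, 10833 have 1 symbol, 396 several and 1193 none. limma 3.58.1 in R 4.3.3 was fitted to all arrays with a coefficient per group (22 residual degrees of freedom), two-sided, with Benjamini-Hochberg adjustment over the 12422 probe sets in each comparison and a threshold of 0.05. The fit was tested on simulated data. The number of arrays limits the precision.

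All 11 probe sets of the members are described. Of the pathway lists, the up to 3 genes per role with the largest change among those that passed are named for the diet effects, and up to 2 for the HCM effects and for fatty acid synthesis. The members and lists were chosen with earlier results of these data known. Mean correlations of deviations between same-numbered arrays lay between -0.20 and 0.36 over 28 group pairs. In 1, male with female casein wild type, every one was over 0.1, where the numbers also mark array sets A and B. The replicate block was kept as an alternative. Alternatives covered probe set choice, a filter on dim probe sets, 2 rescalings, a replicate block, array weights, an intensity trend, array sets, the groups in the fit and each array left out.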

Additional observations from a re-analysis of the deposited data

Results flagged for a closer look

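Of 66 sets of 4 replicate arrays of a member probe set, 3 held a value that stood apart by Dixon's test, and chance flags about 1 in 20 groups, which is 3.3 here. Dhcr7 read 5.68 in male soy wild-type replicate 2, against 4.50 to 4.59 in the other 3 arrays of that group. This is the array whose mean correlation with its group was 0.963. Idi1 read 5.69 in female casein HCM replicate 2, against 5.42 to 5.46 in the others. Fdps 162281_at read 5.21 in female soy wild-type replicate 4, against 4.92 to 4.96 in the others.

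The diet effect on Fdps 99098_at differed between the genotypes by 0.40 on the log2 scale, at 0.60 in HCM and 0.19 in wild type, by the limma interaction test (adjusted p 3.59e-05). All 8 casein HCM arrays lay above all 6 soy HCM arrays.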

How the results depend on the processing

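Of the 16 member results that passed, 131 of 151 values under the 12 other settings still passed and none changed sign. Fdps 99098_at (both diet effects, their difference and the HCM effect on soy), Fdps 162281_at (both diet effects), Sqle (diet in HCM) and Idi1 (HCM on casein) passed under every setting that gave a value. The count for diet in wild type, 4, was 2 with 1 probe set per gene, without the dimmest 40% of probe sets, with array sets as a random block and with only the groups compared. The count for diet in HCM, 6, was 3 without the dimmest 40% and with the array set as a block. The count for their difference, 1, was 0 with 1 probe set per gene, 3 with array weights and 2 with set B alone. HCM on casein, 3, had 1 with the array set as a block. HCM on soy, 2, had 0 with 1 probe set per gene, 1 without the dimmest 40% and with the array set as a block, and 5 with array weights. Leaving out 1 array gave 2 to 4 for diet in wild type, 4 to 8 for diet in HCM, 1 to 3 for their difference, 3 to 5 for HCM on casein, 2 for HCM on soy and 0 for sex and diet by sex; without male soy wild-type replicate 2 they were 4, 8, 3, 4, 2, 0 and 0. With 1 probe set per gene and without the dimmest 40% (6 of the 11 kept), counts fell where called probe sets were left out. No call of a probe set that these settings keep was lost under them. The causes of the other changes in count were not tested. Centring moved arrays by up to 0.12 relative to each other, and this shift followed diet, since every casein array had a lower median than every soy array. In HCM the diet split of 3 higher and 3 lower was 2 and 3 after quantile normalization. There Hmgcs1 and Fdps 160424_f_at lost their calls and Scarb1 passed as lower. After centring the split was 3 and 2, since Hmgcs1 did not pass.

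With the replicate number as a block the counts were 4 and 5 for diet in wild type and in HCM, 1 for their difference, 4 and 2 for HCM on casein and soy, and 0 for sex and diet by sex. The diet effect in HCM of Fdps 162217_r_at changed sign under that block, at -0.0018.

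Among results that did not pass, 17 of 425 values passed under another setting and 17 changed sign, and the cause was not tested. For diet in wild type, Fdft1 was 0.067 after centring and 0.087 with set B alone, Fdps 160424_f_at was 0.030 after centring and 0.043 with set A alone, and Fdps 162217_r_at was -0.00099 with array weights and -0.023 with set B. With array weights Fdps 162217_r_at was -0.015 for diet in HCM, and Dhcr7 was 0.0048 for HCM on soy. For the difference between the diet effects, set A alone gave 0.048 for Hmgcs1, -0.024 for Lss and 0.032 for Dhcr7, and Fdps 162217_r_at was 0.070 after quantile normalization and 0.029 with set B. For HCM on casein, set B gave -0.048 for Hmgcs1 and 0.010 for Lss, and set A gave 0.045 for Fdft1. With 1 array left out, sign changes came within -0.045 to 0.030 (Fdft1), -0.0053 to 0.026 (Fdps 162217_r_at) and -5.29e-06 to 0.12 (Scarb1) for diet in wild type, -0.024 to 0.035 (Fdps 162217_r_at) for diet in HCM, -0.037 to 0.023 (Fdps 162217_r_at) and -0.21 to 0.014 (Dhcr7) for their difference, -0.076 to 4.68e-05 (Fdft1) for HCM on casein, and -0.15 to 0.050 (Dhcr7) and -0.079 to 0.016 (Sqle) for HCM on soy. Signal over background is not in the deposited values, so which dim probe sets lie at background cannot be read from them.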
